A study of Mus musculus with 12 samples.

Results

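The middle and the base of the mouse cochlea were compared at postnatal day 8 (P8), the basal step of the gradient along the cochlear duct. The comparison rests on 4 of the 12 arrays of the series: 2 arrays of P8 middle and 2 arrays of P8 base. All mice were C57BL/6, with no treatment or engineered allele. The tissue of each age was cut into pieces from apex, middle and base, and each array holds RNA pooled from 1 kind of piece of many temporal bones. The dissection was done in a first and a second set, so that each group has 1 array of each set, and the middle and base arrays of a set are pieces of the same ears. The apex at P8 and the middle and base at postnatal day 0 (P0) serve below to place the P8 step. Signals are the authors' log2 values after robust multiarray averaging (RMA), in which a difference of 1 is a 2-fold change in signal. Of 19938 genes with 1 entry chosen each, 16306 were tested, namely those whose group mean exceeded a log2 level of 6 in any of the 6 combinations of age and region.

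The cochlea sorts sound by place: the base answers to high and the apex to low frequencies, and hair cells, their supporting cells and the gel above them differ in shape and stiffness along the duct. Hair cells turn the deflection of their bundles into release of transmitter at ribbon synapses. The tectorial membrane is the gel that covers the bundles and is made of collagens with tectorins and otogelins that the epithelium secretes. Each piece held the sensory epithelium, the spiral limbus and the lateral wall, and markers of these tissues were measured on all 4 arrays. The 4 hair cell markers Myo7a, Pou4f3, Slc26a5 and Ocm lay between 7.01 and 11.3 on the log2 scale, the 4 supporting cell markers Sox2, Prox1, Gjb2 and Gjb6 between 6.45 and 12.5, and the 3 fibrocyte markers Coch, Otos and Pou3f4 between 8.79 and 12.2. The bone markers Ibsp and Dmp1 lay between 7.25 and 12.1 and the cartilage markers Col2a1 and Acan between 7.87 and 12.8, although the bony capsule had been removed. In such bulk pieces, fewer cells of a type and less RNA per cell cannot be told apart.

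In the P8 middle, 18 genes were higher and 1 gene was lower than in the P8 base. The higher genes included 3 proteins of the tectorial membrane (Tecta, Tectb and Otog), the nicotinic receptor subunit Chrna3 and the leucine-rich repeat membrane protein Slitrk6. The transcription factor Isl1 and the RNA-binding protein Rbm24 were also among the 18 genes. The differences of the 18 genes ran from 0.69 to 1.95 on the log2 scale, with a median of 0.96 and standard errors (SE) of 0.10 to 0.17, and 8 of the 18 exceeded 2-fold. The patterning gene Hoxa2 was the 1 lower gene. A gene passed with a fold of at least 1.5 and a Benjamini-Hochberg adjusted p under 0.05 in limma. The fit held the 6 group means and the dissection set as a block shared by both ages. What the pieces of 1 pool of ears share beyond that block stayed in the spread. The higher genes were 0.11% and the lower gene 0.00613% of the 16306 genes tested. Before adjustment, 98 genes were higher and 37 lower at p under 0.05 and 1.5-fold. Without the block for the dissection set no gene passed (0%; 71 higher and 23 lower before adjustment), with adjusted p-values of 0.22 to 1.0 for the 18 higher genes and of 0.56 for Hoxa2. With a block for each pool of ears, that is for each age and set, 70 genes were higher and 17 lower. Otogl, Slc26a5 and Fst (higher) and Dmp1 and Crhbp (lower) were among these, although they did not pass with the set as the block. Below, passing the test refers to the fit with the set as the block unless another block is named. Leaving out 1 of the 4 arrays compared left 0 to 5 higher genes and no lower gene, with 0 calls without the base array of the second set.

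**Figure D1:**
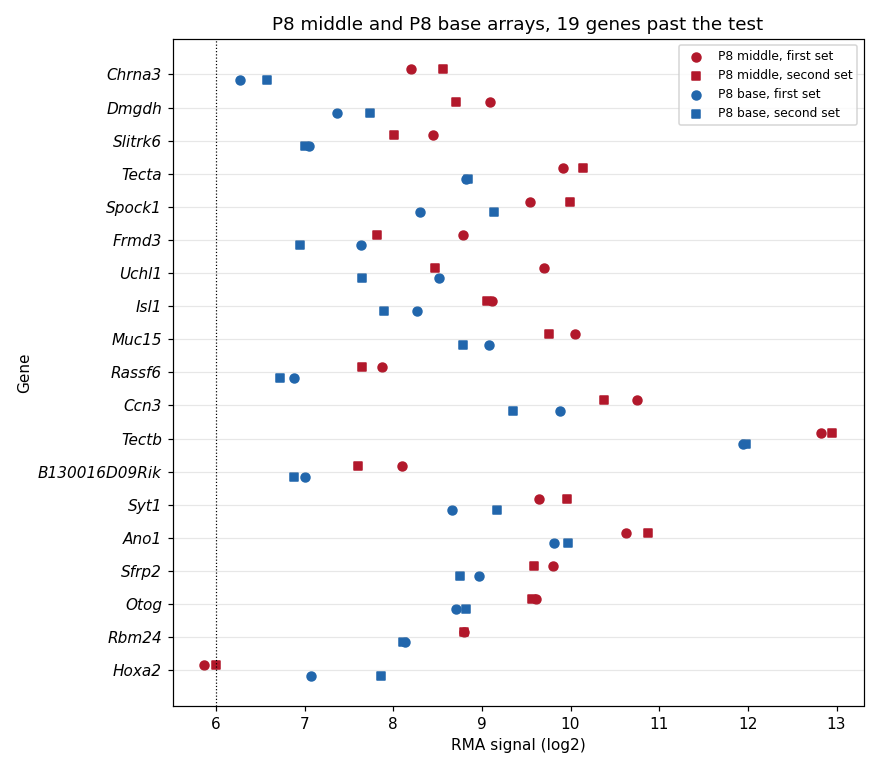
RMA signal (log2, x axis) of the 19 genes past the test (y axis) in the P8 middle (red) and P8 base (blue), with circles for the first and squares for the second dissection set; the dotted line is the log2 level of 6. In 17 of the 18 higher genes both middle arrays lie to the right of both base arrays, Uchl1 being the exception, and the middle arrays of Hoxa2 lie near the line.

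The sets shared a part of their differences. Over all tested genes 9083 of 16306 (55.7%) had the same sign in both sets, and 56 were at least 1.5-fold higher and 15 at least 1.5-fold lower in the middle in both, while 0 genes passed that fold in opposite directions. In the first set the differences spread more widely over the genes (SD 0.298, with 416 genes 1.5-fold higher and 403 lower) than in the second set (SD 0.148, with 104 higher and 34 lower). Across all tested genes the differences of the sets correlated with r = 0.271, a description over genes, which are not replicates. The median difference of all tested genes was -0.01. The 19 genes had the same sign in both sets, and the 2 middle arrays lay above the 2 base arrays in 17 of the 18 higher genes, against 9.05% of all tested genes, but both follow from the choice of these genes on the same 4 arrays.

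**Figure D2:**
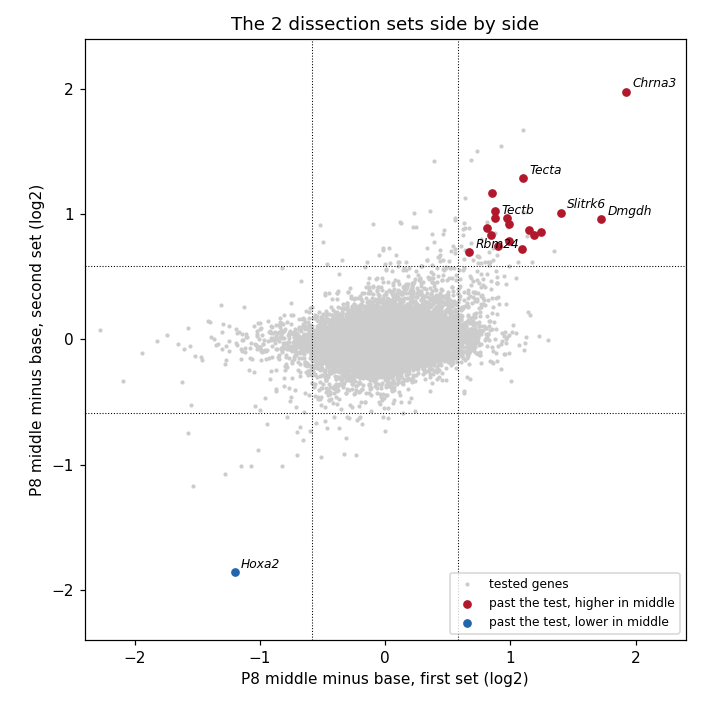
P8 middle minus P8 base (log2) in the first (x axis) and in the second dissection set (y axis), 1 point per tested gene, with the genes past the test in red (higher in the middle) and blue (lower); dotted lines mark 1.5-fold. The cloud is wider along the first set, and the 19 genes lie past 1.5-fold in both sets, with Chrna3 at 1.93 and 1.98.

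The list of tectorial membrane and acellular gels held the most genes past the test. The bases before the annotated starts of Tecta, Tectb and Otog are given because these genes moved together, beside those of the gene with the largest rise, Chrna3, and of Hoxa2. Each run is the 150 bases upstream of the start in RefSeq (GRCm38.p6), on the strand of the gene: chr9:42401691-42401840 (minus) for the first of the 2 starts of Tecta, chr19:55180576-55180725 (plus) for Tectb, chr7:46240837-46240986 (plus) for Otog, chr9:55026563-55026712 (minus) for Chrna3 and chr6:52164832-52164981 (minus) for Hoxa2. Capitals mark matches, on either strand, to the E-box CANNTG, the GATA motif AGATAA, the SOX motif ACAAAG and the TATA box TATAAA.
Tecta: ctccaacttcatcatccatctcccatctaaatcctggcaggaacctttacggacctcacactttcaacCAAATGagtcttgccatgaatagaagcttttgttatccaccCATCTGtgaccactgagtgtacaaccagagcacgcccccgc
Tectb: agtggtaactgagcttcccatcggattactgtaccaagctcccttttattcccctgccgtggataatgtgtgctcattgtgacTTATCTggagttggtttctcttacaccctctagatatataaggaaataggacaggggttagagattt
Otog: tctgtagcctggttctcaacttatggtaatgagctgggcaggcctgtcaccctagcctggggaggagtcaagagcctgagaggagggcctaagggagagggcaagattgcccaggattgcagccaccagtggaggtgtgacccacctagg
Chrna3: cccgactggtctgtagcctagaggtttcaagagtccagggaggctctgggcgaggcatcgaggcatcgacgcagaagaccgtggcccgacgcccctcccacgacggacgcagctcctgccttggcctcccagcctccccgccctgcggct
Hoxa2: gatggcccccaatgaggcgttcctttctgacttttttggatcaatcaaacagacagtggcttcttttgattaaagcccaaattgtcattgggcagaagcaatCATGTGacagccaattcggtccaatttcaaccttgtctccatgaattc
Tecta held 2 E-boxes, at 82 and 41 bases before the start, Hoxa2 held 1 at 48 bases, and Tectb held 1 GATA match at 67 bases on the other strand. In Otog and Chrna3 none of the 4 motifs was found in this window. Of all 32843 promoter windows of this length, 47.7% held the E-box, 5.65% the GATA motif, 9.89% the SOX motif and 7.58% the TATA box. Among the 19 windows of 17 of the genes past the test, 8 held the E-box, 1 the GATA motif, 1 the SOX motif and 0 the TATA box. The 3 tectorial membrane genes shared none of the 4 motifs.

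Tecta, which encodes α-tectorin, a main noncollagenous protein of the tectorial membrane, had 9.92 and 10.14 in the middle arrays (first and second set), against 8.82 and 8.85 in the base arrays. The arrays of a region were close together and the regions far apart, and the difference was 1.19 (SE 0.11, 2.29-fold, limma adjusted p = 0.0037). Tectb, its partner β-tectorin, had 12.83 and 12.95 in the middle, against 11.95 and 11.98 in the base. The groups lay about 1 log2 unit apart, with a difference of 0.92 (SE 0.14, 1.9-fold, adjusted p = 0.0442). Otog, which encodes otogelin, had 9.61 and 9.57 in the middle, against 8.71 and 8.83 in the base, with a difference of 0.82 (SE 0.11, 1.77-fold, adjusted p = 0.0308). For Otogl, the otogelin-like protein, the signals were 10.66 and 10.44 in the middle and 9.79 and 9.58 in the base. Its difference of 0.87 (SE 0.17) was as large as that of Otog, but its adjusted p of 0.107 did not pass. Of the 14 genes of tectorial membrane and acellular gels tested, 3 passed as higher and 0 as lower, and the list median was 0.05, against -0.01 over all tested genes. Tecta, Tectb, Otog, Otogl and the endocytic receptor Cubn (0.79) lay at its upper end, whereas the matrilin Matn4 (-0.52) and the collagens Col11a2 (-0.42), Col9a3 (-0.31) and Col9a1 (-0.22) lay at its lower end and did not pass. Ceacam16 and Otoa, other proteins of this gel and its attachment to the limbus, lay at 0.05 and 0.01.

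Chrna3, the α3 subunit of neuronal nicotinic acetylcholine receptors, differed most. Its signal was 8.20 and 8.56 in the middle arrays, against 6.27 and 6.58 in the base arrays, a difference of 1.95 (SE 0.17, 3.87-fold, limma adjusted p = 0.0037). The sets agreed closely, with 1.93 and 1.98. Chrnb4, the β4 subunit, which assembles with α3 in autonomic neurons and lies next to it on chromosome 9, had 7.55 and 8.06 in the middle, against 6.99 and 7.11 in the base. The groups did not overlap, but the difference of 0.75 (SE 0.15) had an adjusted p of 0.111. Chrna10, a subunit of the receptor through which efferent fibres inhibit hair cells, differed by 0.53 (SE 0.17, adjusted p = 0.646), and its partner Chrna9 by 0.18. Among the 13 nicotinic subunits tested, 1 passed as higher and 0 as lower, with a median of 0.07.

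Among genes of neurons, synapses and innervation, Slitrk6, Syt1 and Uchl1 passed the test. Slitrk6, a leucine-rich repeat membrane protein needed for the normal innervation of the mouse cochlea, had 8.45 and 8.01 in the middle, against 7.05 and 7.01 in the base (difference 1.21, SE 0.14, 2.31-fold, adjusted p = 0.0203). Syt1, a calcium sensor of vesicle release, had 9.65 and 9.96 in the middle, against 8.66 and 9.17 in the base (difference 0.89, SE 0.12, adjusted p = 0.0308). Both genes were higher in the middle in each set. Uchl1, a ubiquitin hydrolase abundant in neurons that is in none of the gene lists, had 9.70 and 8.48 in the middle, against 8.52 and 7.64 in the base. Its arrays overlapped between the regions, because the first set was brighter than the second in both, but within each set the middle was higher, by 1.19 and 0.83 (fitted difference 1.01, SE 0.13, adjusted p = 0.0264). For the lists, counts at an unadjusted p under 0.05 carry no fold threshold and stand beside 502 higher (3.08%) and 230 lower (1.41%) of all tested genes. Of 31 genes of synaptic and neuronal adhesion tested, 1 passed as higher and 0 as lower (median 0.03). The cell adhesion molecule Nrcam (0.67), Lrrc55 (0.70) and Slitrk2 (0.73) were the next of this list by unadjusted p and did not pass. Of 20 spiral ganglion neuron genes 1 passed, again Syt1, with a median of 0.09. The neuron markers Tubb3 and Nefl differed by 0.08 and 0.20, with Nefl at -0.52 in the first set and 0.91 in the second. The neuronal genes did not all lie one way, as Ncam2, a neural adhesion molecule, had a difference of -0.62 (adjusted p = 0.428). Of 37 axon guidance genes 0 passed (4 higher and 2 lower at an unadjusted p under 0.05, median 0.07), with the ephrin receptor Epha3 at 0.64 and the secreted guidance cue Ntn1 at -0.71.

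The hair cell genes leaned towards the middle, and 1 of 22 passed. That gene, Rbm24, a regulator of splicing in hair cells and muscle, had 8.80 and 8.80 in the middle arrays, against 8.13 and 8.11 in the base arrays. It had the smallest difference of the 18 higher genes, 0.68 (SE 0.10, 1.61-fold, adjusted p = 0.0451), with the replicate arrays almost equal. Rbm24 did not pass without the block, with quantile normalization or without the filter on low values. Slc26a5, which encodes prestin, the motor protein of outer hair cells, had 9.45 and 9.55 in the middle, against 8.35 and 8.53 in the base. Its difference of 1.06 (SE 0.18, 2.08-fold) was larger, and its adjusted p of 0.0659 did not pass. Ocm, the calcium buffer oncomodulin of outer hair cells, had 10.62 and 11.34 in the middle, against 9.27 and 10.63 in the base, with an overlap between the regions across the sets and an adjusted p of 0.509. Across the list, 20 of 22 genes were above 0, 15 of them in both sets and 0 below 0 in both, against 48% of all tested genes above 0 and 26% in both sets. The median was 0.27. It was 0.25 in the first set and 0.32 in the second. The log2 of the summed signal of the list was 13.28 and 13.51 in the middle, against 12.77 and 13.04 in the base. The early hair cell genes Atoh1 (0.06) and Gfi1 (0.12) differed little.

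The neighbouring lists of the hair bundle and the ribbon synapse leaned the same way. Otof, Slc17a8 and Cabp2 are members of both the hair cell and the ribbon synapse list. Of 27 genes of the hair bundle and transduction 0 passed (10 at an unadjusted p under 0.05, each higher), with 23 above 0 and a median of 0.20. Ush1c, the scaffold harmonin, had 9.07 and 9.10 in the middle, against 8.37 and 8.46 in the base (difference 0.67, SE 0.13, adjusted p = 0.0907). Grxcr2 (0.62), Ptprq (0.64) and the tip-link protein Pcdh15 (0.47) followed and did not pass. Of 14 genes of the ribbon synapse and vesicle release, 13 were above 0 and 1 passed, Syt1, with a median of 0.18. The active-zone proteins Rims2 and Pclo differed by 0.47 and 0.41 and the hair cell calcium sensor Otof by 0.27, with none of the 3 past the test.

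In the list of supporting cells and prosensory genes, 1 of 29 genes passed and 19 were above 0, with a median of 0.21. Isl1, a LIM-homeodomain transcription factor of the developing sensory epithelium and of neurons, had 9.12 and 9.06 in the middle, against 8.27 and 7.89 in the base (difference 1.01, SE 0.14, 2.01-fold, adjusted p = 0.0381). The groups lay well apart. Gata3, a zinc-finger factor whose loss of 1 copy causes deafness in humans, had 11.10 and 10.88 in the middle, against 10.34 and 10.27 in the base, a difference of 0.69 (SE 0.12) with an adjusted p of 0.0646. Six2 (0.60) and the Notch ligand Jag1 (0.51) followed, neither past the test. At the other end of this list lay Fabp7 at -0.66, a fatty acid binding protein of glia and supporting cells, also not past the test. The difference of Fabp7 rested on the first set (-1.275), with -0.05 in the second. The expression of Gjb2 and Gjb6, the connexins that join supporting cells and fibrocytes, differed by -0.06 and 0.18. Of 22 Notch genes 0 passed, with 2 at an unadjusted p under 0.05 (median 0.03).

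Sfrp2, a secreted Wnt inhibitor, had 9.81 and 9.59 in the middle, against 8.96 and 8.76 in the base (difference 0.84, SE 0.13, adjusted p = 0.0499), and was the gene nearest to the threshold inside it. Of 42 Wnt genes 1 passed, with 9 higher and 2 lower at an unadjusted p under 0.05 and a median of 0.06. Fst, which encodes the activin antagonist follistatin, lay just outside the threshold, with 8.74 and 8.92 in the middle, against 8.10 and 7.79 in the base (difference 0.88, SE 0.14, adjusted p = 0.0518). Ccn3 (Nov), a matricellular protein, had 10.75 and 10.38 in the middle, against 9.88 and 9.35 in the base (difference 0.95, SE 0.14, adjusted p = 0.0443). Tnc, the matricellular protein tenascin C, had 8.46 and 8.89 in the middle, against 7.54 and 7.34 in the base. Its difference of 1.24 exceeded that of Ccn3, but with an SE of 0.23 its adjusted p was 0.0921. Of 32 matricellular and elastic fibre genes 1 passed, Ccn3, 10 were above 0 and the median was -0.08, with Ccn2 at -0.60 (adjusted p = 0.604). Spock1, a testican, which is in none of the gene lists, had 9.55 and 9.99 in the middle, against 8.30 and 9.13 in the base (difference 1.05, SE 0.16, adjusted p = 0.0478). Of 28 FGF genes 0 passed (1 higher and 1 lower at an unadjusted p under 0.05). Fgf10, a ligand of the prosensory epithelium, had a difference of 0.91 (SE 0.26, adjusted p = 0.485).

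The other genes past the test belong to none of the gene lists. Dmgdh, a mitochondrial enzyme of choline breakdown, had the second largest difference, with 9.09 and 8.70 in the middle, against 7.36 and 7.74 in the base (1.34, SE 0.17, 2.54-fold, adjusted p = 0.0264). The sets differed in size, with 1.73 and 0.96. Ano1, a calcium-activated chloride channel, had 10.63 and 10.87 in the middle, against 9.81 and 9.98 in the base (difference 0.85, SE 0.13). Frmd3, a protein with a FERM domain, had 8.79 and 7.82 in the middle, against 7.64 and 6.94 in the base (difference 1.01, SE 0.15). Muc15, a membrane mucin, had 10.05 and 9.76 in the middle, against 9.08 and 8.79 in the base (difference 0.97, SE 0.15). Of these, Muc15 was the steadiest, with 0.97 in either set. Rassf6, of the family of RAS-association domain proteins, had 7.87 and 7.65 in the middle, against 6.88 and 6.73 in the base (difference 0.95, SE 0.13). The adjusted p of these 4 genes lay between 0.0308 and 0.0478. The remaining gene was a model without a gene name.

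Hoxa2, a homeobox gene of the hindbrain and second pharyngeal arch, was lower in the middle. Its signal was 5.87 and 6.00 in the middle arrays, against 7.07 and 7.87 in the base arrays. The middle mean lay under the log2 level of 6, so the fitted difference of -1.53 (SE 0.21, adjusted p = 0.0344), a fold of 2.89, is a lower bound of the size of the drop. Of 9 Hox genes tested, 0 passed as higher and 1 as lower. The others lay between -0.22 for Hoxa4 and 0.07 for Hoxd1, so the drop of Hoxa2 had no counterpart past the test among them. Because 1 gene passed in this direction, the genes next in order are given although none passed. Nox3, the NADPH oxidase needed for otoconia, had 5.41 and 5.37 in the middle, against 6.56 and 6.38 in the base (adjusted p = 0.062). Cltrn (collectrin) and the T-box gene Tbx15 likewise stayed under the level of 6 in the middle mean, with differences of -1.04 and -0.92 as lower bounds and adjusted p-values of 0.0793 and 0.0851. Gpr83, a G protein-coupled receptor, had 7.11 and 7.16 in the middle, against 7.77 and 7.97 in the base (-0.73, adjusted p = 0.107). Crhbp, which binds corticotropin-releasing hormone, had 7.69 and 8.81 in the middle, against 8.97 and 9.89 in the base (-1.18, adjusted p = 0.251), Iyd, an enzyme that recovers iodide, had a difference of -0.81, and Pi15, Gask1b, Ajap1 and Fgf14 lay between -0.82 and -0.67.

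The lists of bone, cartilage, tendon and collagen leaned towards the base without a gene past the test. They share members, such as Col11a1 of the cartilage and collagen lists and Col14a1 of the tendon and collagen lists. All 11 bone and osteoblast genes tested were below 0, in both sets, against 29.7% of all tested genes, with a median of -0.35 and 3 at an unadjusted p under 0.05. Dmp1, an acidic matrix protein of osteocytes, had 7.92 and 7.25 in the middle, against 9.46 and 8.42 in the base (difference -1.36, SE 0.30, adjusted p = 0.208). Ifitm5, an osteoblast membrane protein, and Pth1r, the receptor of parathyroid hormone, followed at -0.63 and -0.53. The log2 of the summed signal of the 11 genes was 13.86 and 13.28 in the middle, against 14.19 and 13.67 in the base, so that the middle was lower in each set. For the 16 cartilage genes the sums were 15.08 and 14.65 in the middle, against 15.25 and 14.81 in the base, with a median difference of -0.14 and 12 genes below 0. Of 33 collagens 3 were above 0 and 25 were below 0 in both sets (median -0.18, 0 past the test, 6 lower and 0 higher at an unadjusted p under 0.05). Col3a1 (-0.47) and Col11a1 (-0.45) had the lowest unadjusted p-values with the tendon collagen Col14a1 at -0.59. Of 16 tendon genes 13 were below 0 (median -0.19, 0 past the test, 1 higher and 3 lower at an unadjusted p under 0.05), and Tnmd, the tendon protein tenomodulin, had 8.56 and 9.05 in the middle, against 9.58 and 9.94 in the base (difference -0.95, SE 0.29, adjusted p = 0.556). The part of these tissues in the differences of Hoxa2 and of the other genes that lay lower in the middle was not tested.

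**Figure D3:**
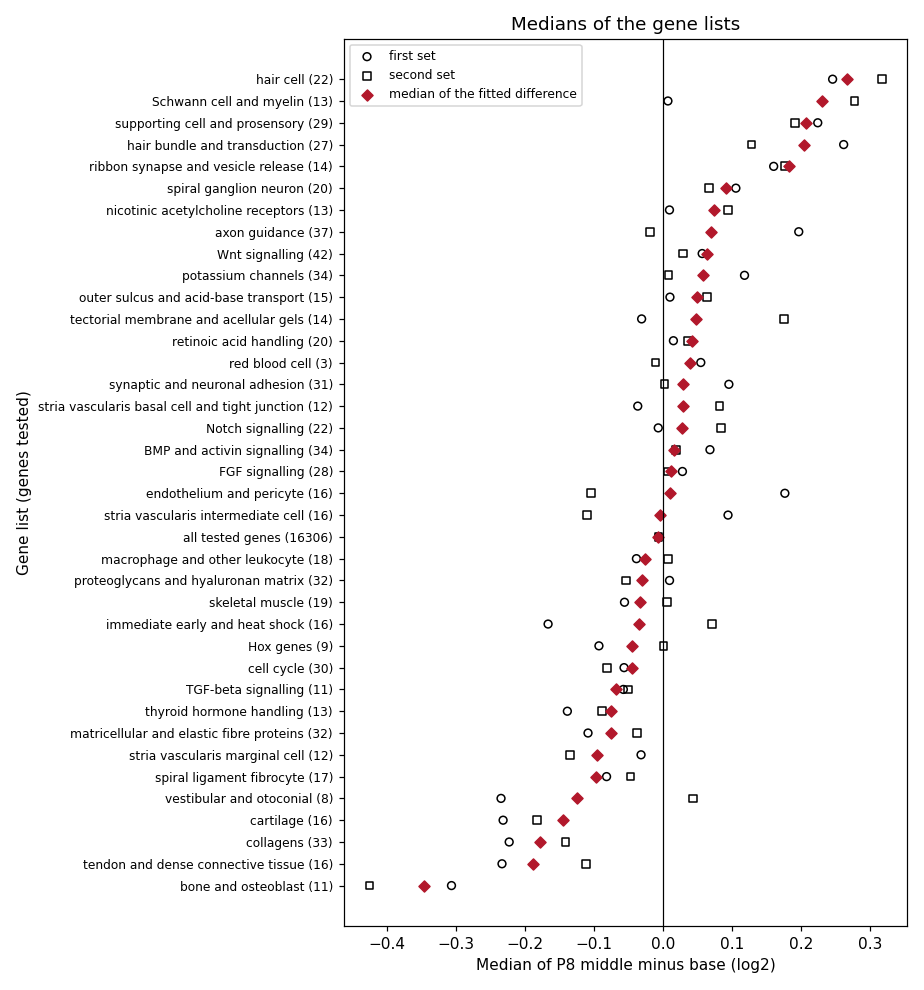
Median of P8 middle minus P8 base (log2, x axis) over the tested members of each gene list (y axis, number of genes in brackets), with the median of the fitted difference (red diamond) and those of the first (circle) and second dissection set (square). Hair cell genes stand at the top with 0.27 and bone genes at the bottom with -0.35, and for several lists between them the sets lie on different sides of 0.

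In the lateral wall no gene of the lists passed the test. Of 12 stria vascularis marginal cell genes, 16 intermediate cell genes and 12 basal cell and tight junction genes, 0 passed in each, with medians of -0.10, 0.00 and 0.03 and 0 to 1 gene at an unadjusted p under 0.05 in each direction. Cldn9, a claudin of the sensory epithelium and its neighbours, had the lowest unadjusted p of the basal cell list at 0.46 (adjusted p = 0.36). The fibrocyte genes of the spiral ligament leaned towards the base: of 17 tested 0 passed, 10 were below 0 in both sets (58.8%, against 29.7% of all tested genes), and 5 were lower and 1 higher at an unadjusted p under 0.05 (median -0.10). The 5 were Crym, Otos, Pi15 (-0.72, a peptidase inhibitor), Dcn (-0.53, the proteoglycan decorin) and 1 predicted gene. The 1 higher gene was the fibrocyte marker Coch, with a difference of 0.27 (SE 0.12, adjusted p = 0.95). Coch went against the lean of the list, and each set had it higher in the middle. Crym, a thyroid hormone binding protein of fibrocytes, had 8.67 and 9.42 in the middle, against 9.71 and 9.95 in the base (difference -0.79, SE 0.18, adjusted p = 0.251). Otos, the fibrocyte protein otospiralin, had 8.79 and 9.40 in the middle, against 9.60 and 9.71 in the base (difference -0.56, SE 0.23, adjusted p = 0.95). Both were lower in the middle in each set, and neither passed. Of 13 genes of thyroid hormone handling 0 passed (4 lower at an unadjusted p under 0.05, median -0.07), with the carrier Ttr at -1.16 and the activating deiodinase Dio2 at -0.43.

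No gene passed among the markers of other cells. The medians were 0.23 for 13 Schwann cell and myelin genes, -0.03 for 19 skeletal muscle genes, -0.03 for 18 macrophage and leukocyte genes, 0.01 for 16 endothelial and pericyte genes, 0.04 for 3 red blood cell genes and -0.12 for 8 vestibular genes, which include Nox3 (-1.08, a lower bound). At an unadjusted p under 0.05 these lists held 0 to 2 higher and 0 to 3 lower genes each. The Schwann cell median rested on the second set (0.28), with 0.01 in the first. The muscle protein gene Mybpc1 had the largest difference among the muscle genes, 0.71 (SE 0.12, adjusted p = 0.062), and 6 of the 19 were above 0. The cell cycle list, with 30 genes, had a median of -0.04, and 0 of 16 immediate early and heat shock genes passed (median -0.04). Potassium channels held 0 of 34 genes past the test (5 higher and 3 lower at an unadjusted p under 0.05), led by Kcnh8 (0.78), Kcna10 (0.73) and Kcnb2 (0.62). No gene passed among 34 of BMP and activin signalling, 11 of TGF-beta signalling, 32 of proteoglycans, 20 of retinoic acid handling and 15 of the outer sulcus, where 0 to 3 genes were higher and 0 to 1 lower at an unadjusted p under 0.05 and the medians lay between -0.07 and 0.05.

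The step from base to middle was then set beside the step from middle to apex, which uses the same middle arrays. Of the 18 genes higher in the middle than in the base, 16 had a mean in the apex above that in the middle, by up to 1.38, and 15 had it in both sets, beside 47.6% and 29.6% of all tested genes, in steps that share the middle arrays. Tecta gained most, with 11.26 and 11.55 in the apex, 1.38 above the middle (SE 0.11, limma adjusted p = 0.0018). Ccn3, Isl1, Rbm24 and Syt1 lay 0.87, 0.76, 0.71 and 0.65 higher in the apex than in the middle, none past the test. Chrna3 and Dmgdh had their highest mean in the middle instead. Chrna3 had 7.80 and 8.48 in the apex, 0.24 below the middle (SE 0.17, adjusted p = 1.0), and Dmgdh had 8.55 and 8.57 in the apex, 0.33 below the middle (SE 0.17, adjusted p = 1.0). Slitrk6, Uchl1, Frmd3, Tectb and Ano1 differed by 0.18 to 0.24 between apex and middle. A contrast of the first step against the second, in the same limma fit, had 0 genes past the test (0%). At an unadjusted p under 0.05 without a fold threshold, it had 147 genes higher and 90 lower. With no requirement on the level, 244 of 16306 tested genes (1.5%) reached that p, a share below the threshold of 0.05 itself. The adjusted p of this contrast was 0.302 for Chrna3, with a difference between the steps of 2.19 (SE 0.30), and 1.0 for Dmgdh, with 1.67 (SE 0.29). With the pool of each age and set as the block in place of the set, Chrna3 passed (adjusted p = 0.001). Hoxa2 had 5.77 and 5.53 in the apex, so that middle and apex both lay under the level of 6 and no order between them is read.

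**Figure D4:**
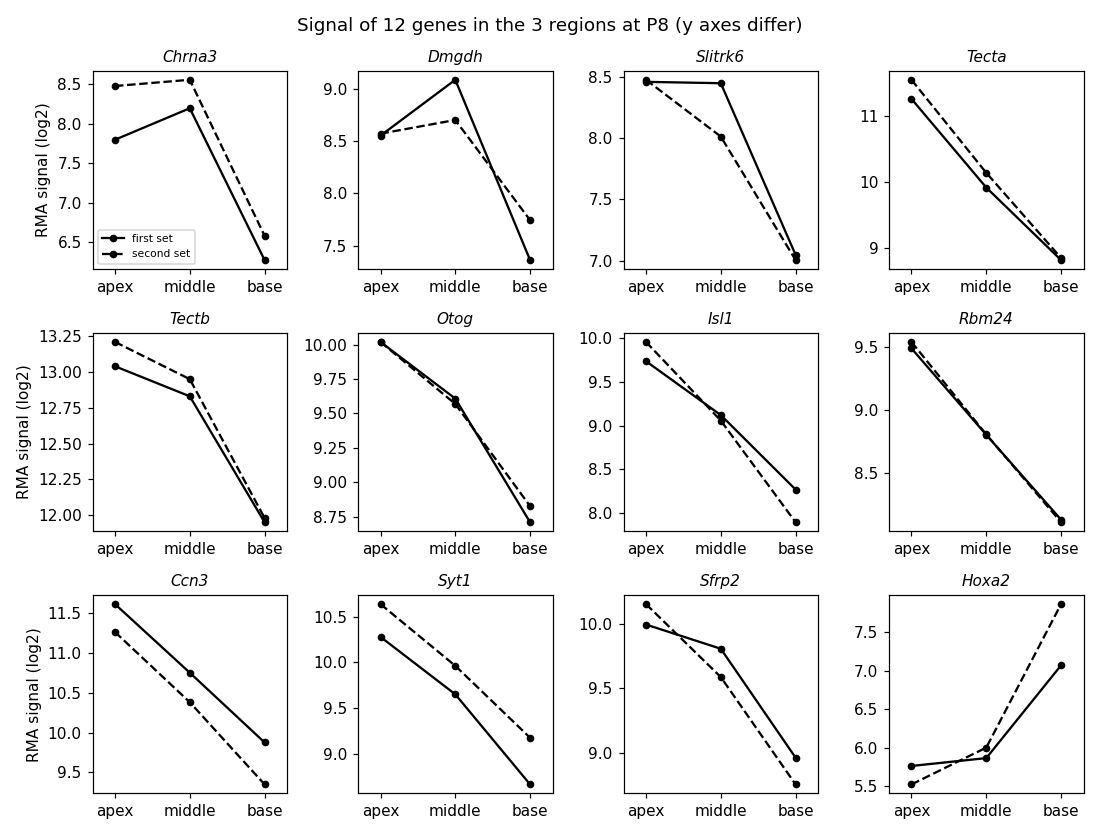
RMA signal (log2, y axes that differ between panels) of 12 genes in the apex, middle and base at P8 (x axis), with a solid line for the first and a dashed line for the second dissection set. Tecta, Ccn3, Isl1, Rbm24 and Syt1 have their highest mean in the apex, while Chrna3 and Dmgdh have their highest point in the middle.

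At P0 the same step was measured on other arrays, from younger mice, which entered the choice of these genes through the spread alone. The middle exceeded the base in both sets in 15 of the 18 genes, against 33.8% of all tested genes, with a median difference of 0.30, against 0.03 over all tested genes. The differences at P0 ran from -0.17 to 0.93 and were smaller than at P8 in 17 of the 18 genes, which had been chosen on their P8 difference. Tectb, the exception, had 11.84 and 12.36 in the middle and 10.95 and 11.39 in the base at P0, a difference of 0.93 (SE 0.14, adjusted p = 0.179), beside 0.92 at P8. Isl1 differed by 0.78 at P0, Muc15 by 0.59 and Ano1 by 0.57. Tecta differed by 0.36 at P0, with 12.30 and 12.47 in the middle, against 11.96 and 12.09 in the base. Chrna3 had 5.70 and 5.71 in the middle, against 5.74 and 5.66 in the base at P0, all under the level of 6, and no difference is read. Dmgdh lay near that level, between 5.89 and 6.24 in these arrays, with a difference of 0.07 (SE 0.17). Hoxa2 had 5.63 and 5.78 in the middle, against 6.90 and 7.48 in the base at P0, a lower bound of -1.49, beside -1.53 at P8. The change of the step between the ages was tested as an interaction in limma, and 0 genes passed (0%). At an unadjusted p under 0.05 without a fold threshold, 149 genes had a larger and 131 a smaller difference at P8. With no requirement on the level, 283 of 16306 tested genes (1.74%) reached that p, a share below the threshold of 0.05 itself. Chrna3 came nearest of the 18 genes, with a change of 1.95 (SE 0.25, adjusted p = 0.0686, and 0.000362 with the block by pool), and the change of Tecta was 0.83 (adjusted p = 0.867).

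**Figure D5:**
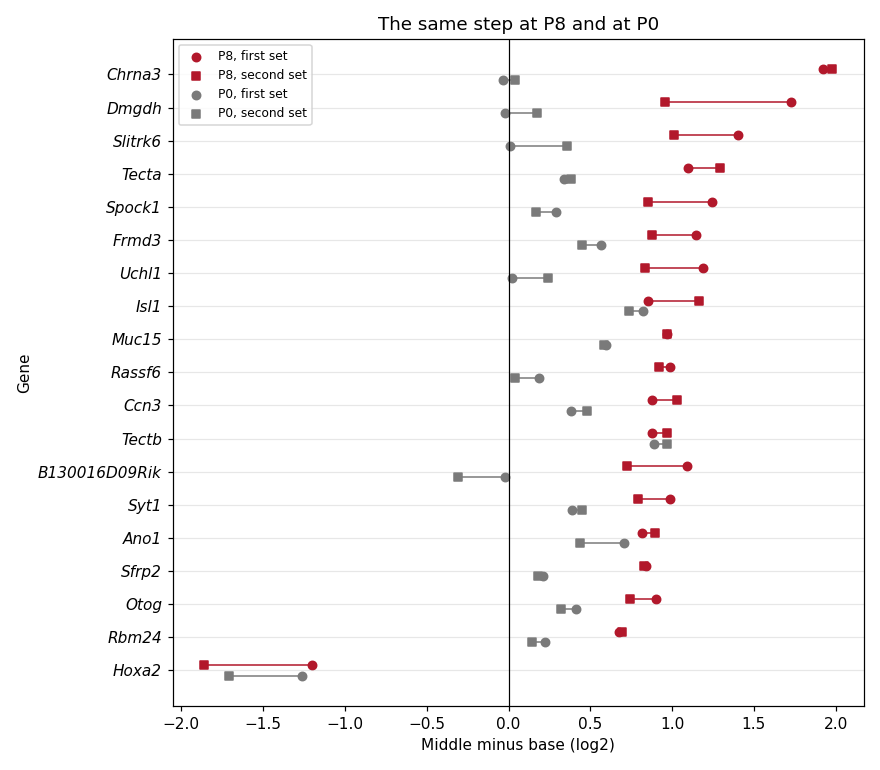
Middle minus base (log2, x axis) of the 19 genes that passed at P8 (y axis), with the first (circle) and second dissection set (square) joined by a line, at P8 (red) and at P0 (grey). The P0 points of 15 of the 18 higher genes lie right of 0 in both sets, those of Tectb and Hoxa2 lie near their P8 points, and those of Chrna3 lie near 0.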

How the data were processed

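The 12 Affymetrix Mouse Gene arrays, 2 per group of age (P0, P8) and region, were analysed. The authors scanned them with the Affymetrix Command Console software and deposited log2 values from RMA, of unstated version; whether both dissection sets went through 1 RMA run is not given in the sources used here. Of 35556 entries, 21789 carried 1 gene symbol, 1621 several and 12146 none; only the first were used, and the entry with the highest mean over the 12 arrays stood for its gene. Coordinates and promoters were taken from RefSeq (GRCm38.p6), in which 19855 of the 19938 genes were matched. Array medians were 7.21 to 7.29; the number of arrays limits the precision.

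Contrasts were fitted in limma 3.58.1 (R 4.3.3; lmFit, eBayes) over all 12 arrays, with 6 group means and the dissection set as a replicate block (5 residual and 5.76 prior degrees of freedom), adjusted by Benjamini-Hochberg over 16306 genes. The block takes up what the arrays of a set share across both ages; regions of 1 age and set are also pieces of the same pool of ears, which a block by pool (an alternative) takes up, and arrays of 1 set deviated together (r from 0.544 to 0.916 over 15 pairs of groups, 0.81 for P8 middle and base). The median SD between arrays was 0.176 in the P8 middle and 0.17 in the P8 base, and 0.129 for the differences within sets. Where the lower mean was under the log2 level of 6, the difference is a lower bound. The interaction with age and the contrast of the steps at P8 had no fold threshold, before or after adjustment. Their counts required a group mean above the log2 level of 6. The other counts quoted at an unadjusted p under 0.05 use the 1.5-fold threshold, except for gene lists. The limma fit was tested on simulated data with known changes. Those data held a shift shared by a set but none shared by a pool, so they cannot decide between the blocks.

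The genes named are the 12 with the largest difference in each direction past the test, filled up by the lowest p among genes with 1.5-fold in both sets, up to 4 members of each list, and 12 set genes; others past the test or quoted within a list were added after their values were seen. The comparison and the gene lists were chosen with earlier results of these data known, and the lists are described by counts and medians without a test. Alternatives were other blocks, P8 arrays alone, an intensity trend, quantile normalization, the mean of entries, other level filters, no fold threshold, the methods' t-test and each array left out. Python 3.11.15, pandas 2.3.3 and matplotlib 3.10.9 made the tables and figures.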

Additional observations from a re-analysis of the deposited data

How the results depend on the processing

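The counts of genes past the test depended on how the dissection sets were modelled and on single arrays. Without the replicate block 0 genes were higher and 0 lower in the P8 middle than in the P8 base, and with a replicate block by pool (age and set) 70 were higher and 17 lower, among them all 19 of the main fit. P8 arrays alone with the replicate block gave 48 higher and 12 lower genes, quantile normalization 8 higher genes, all among the 19, and the methods' t-test 36 higher and 4 lower genes unadjusted and 0 and 0 after Benjamini-Hochberg adjustment. With each of the 12 arrays left out in turn, 0 to 17 genes were higher and 0 to 1 lower. Leaving out either array of a P0 group left 2 (base), 4 (middle) or 8 (apex) higher genes, and leaving out an array of the comparison itself left 3 (P8 base, first set, with 1 of them among the 19), 0 (P8 base, second set), 1 (P8 middle, first set) or 5 (P8 middle, second set). Chrna3 and Tecta passed without 10 of the 12 arrays, Dmgdh and Slitrk6 without 7 and Rbm24 without 0. The change of the step from P0 to P8 had 4 genes past the test with the block by pool (Chrna3, higher at P8, and Bpifa1, Dmp1 and Trpa1, lower, named after their values were seen) and 0 to 2 with an array left out. The contrast of the steps at P8 had 1 gene, Chrna3, with the block by pool, 1 gene with P8 arrays alone and 0 to 1 with an array left out. The intensity trend, the mean of entries, the level filters and the missing fold threshold kept each count of the comparison within 1.5 times, and no difference past the test changed sign under any alternative run.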
